A study of Mus musculus with 6 samples.

Results

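The 9 genes of calmodulin signalling are described here, out of the 11234 genes measured in MC3T3-E1 cells, a mouse preosteoblast line from skull bone. They are the CaM kinase genes *Camk2g*, *Camk2d*, *Camk1* and *Camkk2*, the calmodulin genes *Calm2* and *Calm3*, the calcineurin genes *Ppp3ca* and *Ppp3cb*, and the transcription factor gene *Nfatc3*. The members were chosen by name around *Camk2g*, which was selected on its fall with C3G in these same values, and 9 of the 9 are listed in every library. *Camk2g* is therefore described without a test, and the other 8 members were tested in a fit over all genes. C3G is cyanidin-3-O-glucoside, a plant pigment of the anthocyanin class. Cells labelled as strain C57BL/6 and passage 4 were held in serum-free medium for 24 h, after which complete medium was given for 24 h, with C3G at 100 μmol/L in 3 samples and without it in 3 controls. One cell line was used throughout, and the labels number the samples of a group without stating that they were separate cultures, so p values measure only the spread between these samples. The deposited values are FPKM, fragments corrected for gene length and library total, and the depth behind them is unknown.

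Calcium that enters a cell or leaves its stores binds calmodulin, and loaded calmodulin switches on both kinases and a phosphatase. CaM kinase kinase activates CaM kinase I, whereas CaM kinase II phosphorylates itself and then stays active after calcium has fallen. The phosphatase calcineurin removes phosphates from NFAT factors, which then enter the nucleus, and both branches are known in bone-forming cells.

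The libraries were not alike. Control replicate 1 correlated with the other 5 libraries at a Pearson's r of 0.886 to 0.939 in log2(FPKM + 1), taken over genes (not independent replicates), whereas r among those 5 was 0.968 to 0.992. Departures of control replicate 1 from replicates 2 and 3 of its group ran in a way that followed transcript GC (rho 0.748 by Spearman, over all genes), and C3G replicate 1 departed from its group in the same sense (rho 0.631). Of 10 osteoblast lineage markers, 9 were listed, with *Runx2* at 5.46 to 9.07 FPKM and *Sp7* at only 0.237 to 0.857 FPKM. Of 5 chondrocyte markers, 3 were listed, and *Sox9* (48.2 to 106.1 FPKM) and *Col2a1* (35.1 to 104.4 FPKM) were well above 0. The third, *Matn1*, was low, at 0.70 to 2.94 FPKM. No adipocyte or endothelial marker of 5 each was listed, and of 5 each for hematopoietic cells, skeletal muscle and neurons 1 each was (*Cd68*, *Des* and *Tubb3*).

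*Calm2* and *Calm3* encode the same protein, so within the coding sequence their RNAs differ only by bases that leave the protein alone. Both coding sequences are 450 bases long in GENCODE M21 and give identical proteins of 149 residues. Of the coding bases 82.7% are identical, and 78 bases differ. The first 120 coding bases follow, with capitals at the 18 positions where the genes differ, to show how densely the differences lie.
Calm2: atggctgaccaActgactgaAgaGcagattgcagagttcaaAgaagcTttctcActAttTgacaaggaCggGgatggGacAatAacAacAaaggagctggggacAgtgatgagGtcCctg
Calm3: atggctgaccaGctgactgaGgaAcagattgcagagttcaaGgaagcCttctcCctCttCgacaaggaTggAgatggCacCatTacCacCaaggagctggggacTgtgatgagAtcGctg
In this stretch GC content was 48.3% for *Calm2* and 53.3% for *Calm3*. At the last base of all codons it was 48.3% and 66.4% in that order. The *Calm2* and *Calm3* transcripts shared no stretch of 75 bases with each other. Of the 75-base stretches of *Calm2*, 3.89% also occur in the genes *Gm15720* and *Gm7308*, and of those of *Calm3* 1.26% occur in *Gm5881*.

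CaM kinase II is encoded by a small family, in which *Camk2g* and *Camk2d* are the widely expressed members. The autoregulatory segment is shown for both because it holds the threonine that the kinase phosphorylates on itself and the calmodulin-binding region behind it. The 90 bases shown start at the same aligned codon in each gene, and capitals mark the 27 positions that differ.
Camk2g: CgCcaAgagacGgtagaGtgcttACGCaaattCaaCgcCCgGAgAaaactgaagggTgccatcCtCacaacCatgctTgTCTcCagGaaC
Camk2d: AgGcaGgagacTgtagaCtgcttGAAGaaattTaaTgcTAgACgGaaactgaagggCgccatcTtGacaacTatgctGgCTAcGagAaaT
Of the 30 residues encoded there, 26 are identical between the genes, against 63 of the 90 bases (70.0%). Neither transcript shared a 75-base stretch with another gene, and no exon of another gene overlaps them.

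*Camk2g* (ENSMUSG00000021820.18, minus strand of chromosome 14, 20734875 to 20794088, mouse build GRCm38) encodes the gamma chain of CaM kinase II. Controls 1 to 3 had 6.80, 5.82 and 5.45 FPKM, against 3.81, 3.76 and 3.95 FPKM for C3G libraries 1 to 3. The groups did not overlap, C3G being the lower in 3 of 3 pairs, and the C3G values were the more tightly grouped. The group means were 6.02 ± 0.699 FPKM (SD, n = 3) without C3G and 3.84 ± 0.0971 FPKM (SD, n = 3) with it, so that the C3G mean was 63.8% of the control mean. In these bulk samples fewer cells that express a gene and less RNA per cell cannot be told apart. The difference was -0.53 on the log2(FPKM + 1) scale, a scale that understates the change of low genes. Between libraries with the same replicate number it was -0.70, -0.52 and -0.38 for numbers 1, 2 and 3. The chondrocyte markers summed to 213.5 FPKM in control replicate 1, to 92.8 and 105.3 FPKM in control replicates 2 and 3, and to 88.5 to 113.6 FPKM with C3G. The osteoblast markers summed to 6664 FPKM in control replicate 1, to 1897 and 2314 FPKM in control replicates 2 and 3, and to 1867 to 2663 FPKM with C3G. The collagen genes *Col1a1* (4432 FPKM) and *Col1a2* (1995 FPKM) made up most of the osteoblast sum in control replicate 1, whereas *Runx2*, *Spp1*, *Dlx5*, *Msx2* and *Phex*, 5 of the 9 listed markers, were at their lowest of the 6 libraries there. *Runx2*, for instance, had 5.46 FPKM in that library and 7.14 to 9.07 FPKM with C3G. The sum therefore does not stand for the list as a whole, and the part of these markers in the difference was not tested. Without replicate 1 of both groups the difference of *Camk2g* was -0.45, and it lay between -0.63 and -0.45 in the 15 other ways of processing.

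**Figure D1:**
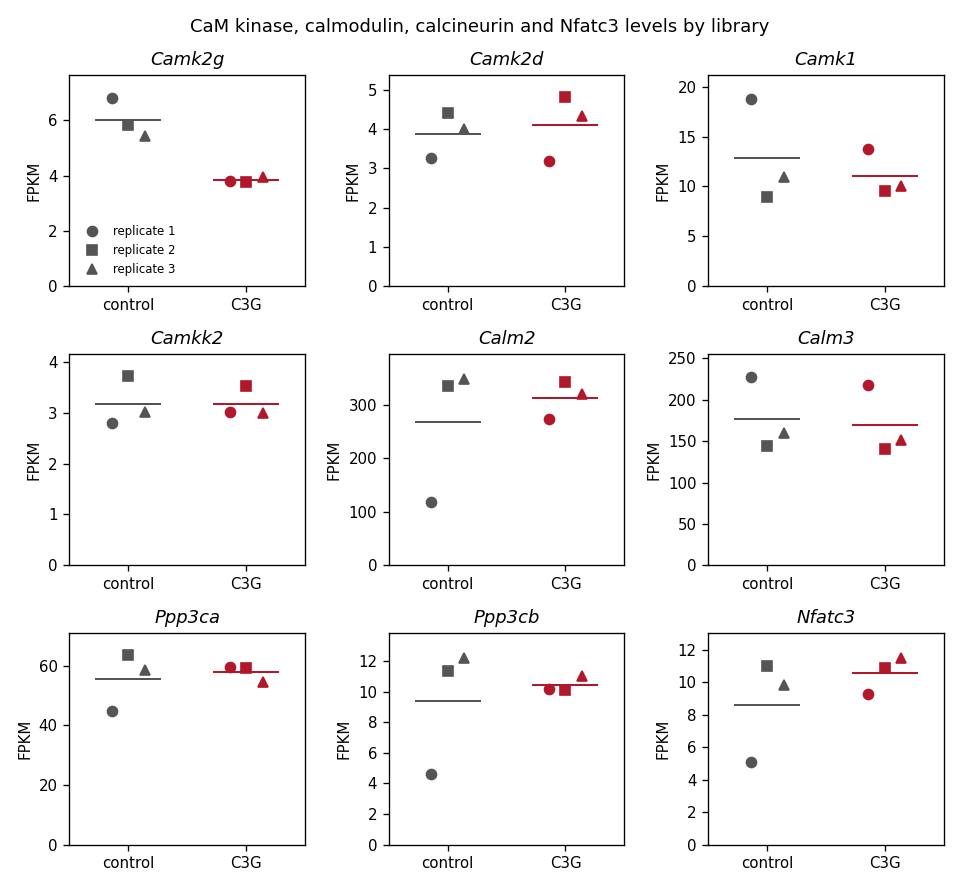
FPKM of the 9 members in each library, with controls in grey and C3G in red. Marker shapes give the replicate number and horizontal lines the group means, and each panel starts at 0. The *Camk2g* groups are apart, whereas the groups overlap in the other 8 panels, where control replicate 1 often lies far from controls 2 and 3.

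*Camk2d* (ENSMUSG00000053819.16, chromosome 3, 126596302 to 126846326, plus strand) encodes the delta chain of the same kinase. Controls 1 to 3 had 3.25, 4.4 and 4.00 FPKM, against 3.18, 4.81 and 4.34 FPKM for C3G libraries 1 to 3. Replicate 1 was the lowest library in both groups, and the groups overlapped. The log2 difference was 0.06, with a 95% interval of -0.40 to 0.52 (limma, adjusted p = 0.992).

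Another gene of the family, *Camk2a*, was low, at 1.06 ± 0.577 FPKM (SD, n = 3) in controls and 0.750 ± 0.138 FPKM (SD, n = 3) with C3G, and *Camk2b* was not listed. Of the FPKM summed over the 3 listed genes, *Camk2g* made up 57.7%, 53.2% and 53.4% in the control replicates and 48.4%, 41.0% and 43.7% in the C3G replicates. *Camk2g* was thus the larger part in every control, while its share was under 50% in every C3G library. The ratio of *Camk2g* to *Camk2d* was 2.09, 1.32 and 1.36 in the controls and 1.2, 0.782 and 0.910 with C3G, so that *Camk2d* was the higher of the pair in C3G replicates 2 and 3. The summed level was 11.0 ± 0.789 FPKM (SD, n = 3) in controls and 8.70 ± 0.715 FPKM (SD, n = 3) with C3G. These shares and sums contain the values that chose *Camk2g* and were not tested.

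**Figure D2:**
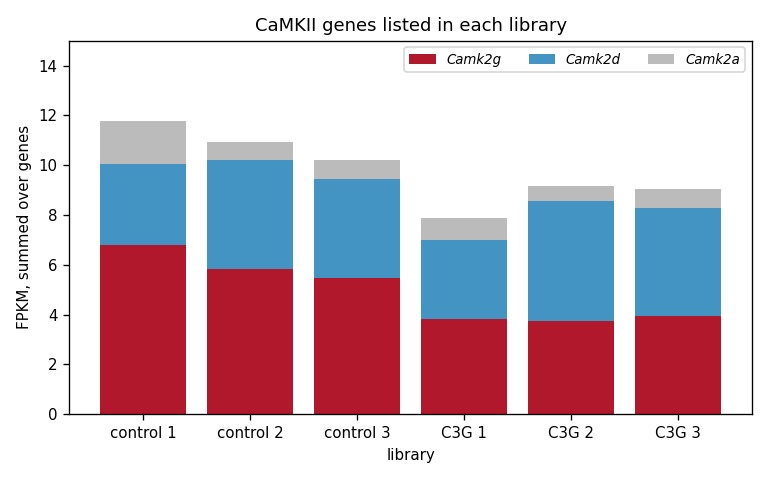
FPKM of the listed CaM kinase II genes, stacked for each of the 6 libraries on an axis from 0. The *Camk2g* part is 5.45 to 6.80 FPKM in the controls and 3.76 to 3.95 FPKM with C3G, and the parts of *Camk2d* overlap between the groups.

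*Camk1* (ENSMUSG00000030272.15, chromosome 6, 113334124 to 113343984, minus strand) encodes CaM kinase I, which acts on synapsin and other substrates once CaM kinase kinase has phosphorylated it. Controls 1 to 3 had 18.8, 8.98 and 10.9 FPKM, against 13.7, 9.49 and 9.99 FPKM for C3G libraries 1 to 3. Replicate 1 was the highest library of each group, and the groups overlapped. The log2 difference was -0.16 (95% interval -0.84 to 0.53, limma adjusted p = 0.992), and with replicates 2 and 3 only it was -0.02 (-0.31 to 0.27). Exons of *Ogg1* overlap those of *Camk1* on the opposite strand. The libraries were stranded, but how strand was used in counting is not given in the sources used here.

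*Camkk2* (ENSMUSG00000029471.13, chromosome 5, 122731170 to 122779409, minus strand) encodes a kinase that activates CaM kinases I and IV and also the energy sensor AMPK. It had 2.80, 3.73 and 3.01 FPKM over controls 1 to 3 and 3.01, 3.52 and 2.99 FPKM over C3G libraries 1 to 3. Both group means rounded to 3.18 FPKM, with an SD of 0.490 in controls and 0.300 with C3G (n = 3 each). The interval of the log2 difference was -0.38 to 0.38 (limma, adjusted p = 1.00). The related *Camkk1* was somewhat higher in level, at 3.93 FPKM in controls and 4.46 FPKM with C3G.

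The calmodulin genes had the highest levels of the members. *Calm2* (ENSMUSG00000036438.12, chromosome 17, 87433412 to 87446935, minus strand) had 119, 334 and 347 FPKM over controls 1 to 3 and 273, 342 and 319.5 FPKM over C3G libraries 1 to 3. Control replicate 1 stood far under the other 5 libraries, which lay between 273 and 347 FPKM. The log2 difference of 0.37 had a 95% interval of -0.63 to 1.37 (limma, adjusted p = 0.992). With replicates 2 and 3 only it was -0.04 (-0.26 to 0.17). Without control replicate 1 it was -0.13 and without C3G replicate 1 it was 0.46, so the positive difference rested on control replicate 1.

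*Calm3* (ENSMUSG00000019370.10, chromosome 7, 16915379 to 16924114, minus strand) had 228, 145 and 159.7 FPKM over controls 1 to 3 and 217, 140.0 and 152 FPKM over C3G libraries 1 to 3. Here replicate 1 was the highest library of both groups, and the values of same-numbered libraries were close. The log2 differences of the pairs were -0.07, -0.05 and -0.07, and the fitted difference was -0.06 (95% interval -0.67 to 0.55, limma adjusted p = 0.992). *Calm2* and *Calm3* thus departed in opposite senses in control replicate 1, where the ratio of *Calm2* to *Calm3* was 0.521, against 2.31 and 2.17 in control replicates 2 and 3. With C3G this ratio was 1.26, 2.44 and 2.11.

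**Figure D3:**
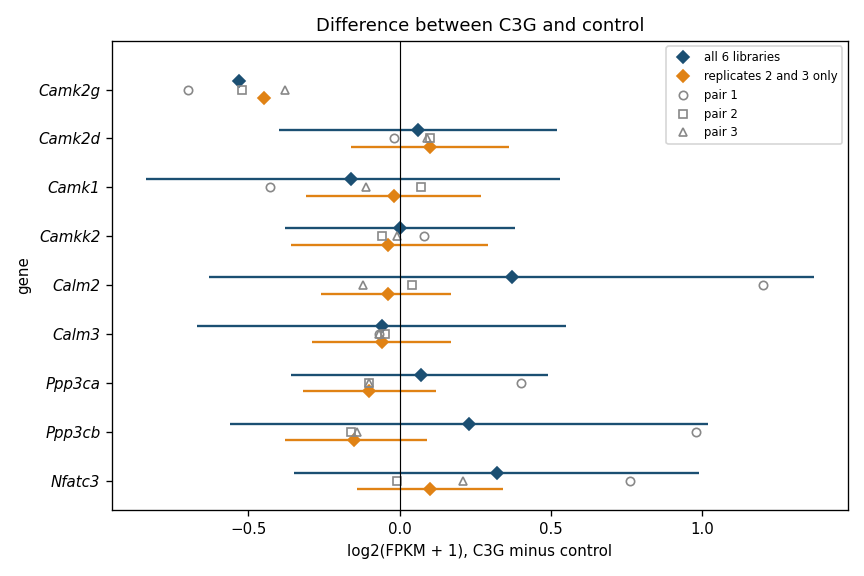
Difference between C3G and control in log2(FPKM + 1) for each member. Filled diamonds are the fitted differences with all 6 libraries (blue) and with replicates 2 and 3 only (orange), lines are 95% intervals (not drawn for *Camk2g*, which was chosen by its difference), and open symbols are the differences of same-numbered pairs. The open circles of pair 1 lie at 1.2 for *Calm2* and 0.98 for *Ppp3cb*, far from pairs 2 and 3, and each interval drawn includes 0.

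Calcineurin is built from a catalytic A chain and a regulatory B chain. *Ppp3ca* (ENSMUSG00000028161.17, chromosome 3, 136670124 to 136937727, plus strand) encodes the alpha form of the A chain and was by far the highest A chain gene, with 78.2% to 85.5% of their summed FPKM in all libraries. Controls 1 to 3 had 45.0, 63.6 and 58.7 FPKM, against 59.8, 59.4 and 54.7 FPKM for C3G libraries 1 to 3. The C3G libraries fell within the range of the controls. The log2 difference was 0.07 (95% interval -0.36 to 0.49, limma adjusted p = 0.992) and -0.10 (-0.32 to 0.12) with replicates 2 and 3 only.

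*Ppp3cb* (ENSMUSG00000021816.11, chromosome 14, 20499364 to 20546573, minus strand) encodes the beta form. It had 4.65, 11.4 and 12.2 FPKM over controls 1 to 3 and 10.2, 10.1 and 11.0 FPKM over C3G libraries 1 to 3. Controls 2 and 3 were above every C3G library and control 1 was below them all. The log2 difference was 0.23 (95% interval -0.56 to 1.02, limma adjusted p = 0.992), and with replicates 2 and 3 only it was -0.15 (-0.38 to 0.09).

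*Ppp3cb* lies on the strand of *Camk2g*, 188.3 kb away, with 6 listed genes between them. The groups overlapped in each of the 6 (*Zswim8*, *Usp54*, *Ndst2*, *Fut11*, *Sec24c* and *Chchd1*), whose log2 differences ran from -0.15 to 0.34.

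*Nfatc3* (ENSMUSG00000031902.10, chromosome 8, 106058840 to 106130537, plus strand) encodes an NFAT factor that calcineurin dephosphorylates. Controls 1 to 3 had 5.07, 11.0 and 9.83 FPKM, against 9.29, 10.9 and 11.5 FPKM for C3G libraries 1 to 3. Control replicate 1 was again the lowest library, and the others overlapped. The log2 difference was 0.32 (95% interval -0.35 to 0.99, limma adjusted p = 0.992), and with replicates 2 and 3 only it was 0.10 (-0.14 to 0.34). Without control replicate 1 it was 0.02. *Esrp2* overlaps exons of *Nfatc3* on the opposite strand.

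Per length, the order of the members in the controls was *Calm2*, *Calm3*, *Ppp3ca*, *Camk1*, *Ppp3cb*, *Nfatc3*, *Camk2g*, *Camk2d* and *Camkk2*. The mean FPKM fell from 267 ± 128 (SD, n = 3) for *Calm2* to 3.18 ± 0.490 (SD, n = 3) for *Camkk2*. The ranges over control libraries did not overlap between *Calm3* and *Ppp3ca*, between *Ppp3ca* and *Camk1*, or between *Camk2g* and *Camk2d*, and they overlapped in the other neighbouring pairs. With C3G the range of *Camk2g* (3.76 to 3.95 FPKM) lay inside that of *Camk2d* (3.18 to 4.81 FPKM). By mean level with C3G, *Camk2d* stood above *Camk2g* and *Nfatc3* above *Ppp3cb*, each pair with overlapping ranges.

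Set against the whole table, 73 of 11234 genes (0.650%) were called by limma (unadjusted p under 0.05, change of 1.2-fold or more), of which 28 (0.249%) were lower with C3G. The same fit with the replicate block called 169 genes. The split of 45 higher and 28 lower became 30 and 30 with quantile normalization and 67 and 68 with a GC correction. Of the 8 members other than *Camk2g*, limma called 0, and 0 had an unadjusted p under 0.05. After Benjamini-Hochberg adjustment of the limma p values 0 genes of the table passed, and 74 had an unadjusted p under 0.05. The groups did not overlap in 452 genes (4.02%) of the table and in 0 of those 8 members. The median log2 difference was 0.06 over the 8 members and 0.06 over all genes.

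The wider pathway was read from 6 lists with 110 genes, 74 of which are listed in the files and 36 of which are not. With limma 0 of the 74 were called higher, 0 were called lower and 0 had an unadjusted p under 0.05, the smallest being 0.131. Their log2 differences ran from -0.39 to 0.51, with a median of 0.03. By sign alone 47 lay above 0 and 27 below, and over all genes 6960 lay above and 4274 below, so no direction was read from the lists. The median over all genes moved from 0.06 to -0.003 with quantile normalization. The groups did not overlap in 1 gene, *Atp2b4*, which encodes a calcium pump of the plasma membrane and had 1.86, 2.03 and 1.97 FPKM over controls 1 to 3 and 2.52, 2.34 and 2.09 FPKM with C3G. Its log2 difference of 0.17 had an interval of -0.15 to 0.49.

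Of the 11 listed CaM kinase family members and regulators, those of highest level were *Dapk3*, a calmodulin kinase relative (20.5 ± 6.92 FPKM in controls and 17.2 ± 2.59 FPKM with C3G, SD, n = 3), and *Camk2n2*, an inhibitor of CaM kinase II. *Camk2n2* had 27.7, 14.6 and 16.0 FPKM over controls 1 to 3 and 17.4, 15 and 14.2 FPKM over C3G libraries 1 to 3, an interval of -0.87 to 0.35 around -0.26. From the list of 9 calmodulin and calmodulin-binding genes, *Marcks*, a substrate of protein kinase C that binds calmodulin, had 328 ± 93.6 FPKM in controls and 277 ± 14.5 FPKM with C3G (SD, n = 3), and *Cnn2*, a calponin, had 168 ± 17.1 and 199 ± 24.8 FPKM in that order.

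In the list of 11 calcineurin subunits and regulators, the B chain gene *Ppp3r1* had 34.3, 70.4 and 68.0 FPKM over controls 1 to 3 and 56.1, 70.0 and 63.4 FPKM over C3G libraries 1 to 3, with control replicate 1 the lowest, as for *Ppp3ca* and *Ppp3cb*. *Ppia*, the cyclophilin through which cyclosporin acts on calcineurin, had 214 ± 2.62 FPKM in controls and 242 ± 31.2 FPKM with C3G (SD, n = 3). *Rcan1*, a calcineurin inhibitor and a known NFAT target, had 9.44, 12.2 and 12.8 FPKM in the controls and 13.3, 12.7 and 12.1 FPKM with C3G. It was named after its values were seen.

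Among 12 NFAT factors and NFAT kinases, the kinase genes *Gsk3a* (35.3 ± 7.98 FPKM in controls and 33.5 ± 3.32 FPKM with C3G, SD, n = 3) and *Gsk3b* (19.2 ± 4.83 and 22.9 ± 1.2 FPKM) had the highest levels. Of 14 CREB, MEF2 and HDAC genes, *Atf1* and *Prkaa1* were the highest in level. *Atf1*, a CREB relative, had 16.2 ± 5.73 FPKM in controls and 17.8 ± 2.03 FPKM with C3G (SD, n = 3). *Prkaa1*, an AMPK chain on which Camkk2 acts, had 15.1 ± 7.93 and 17.8 ± 2.90 FPKM in that order. From 17 genes of calcium entry and stores, *Atp2a2*, the pump that refills the stores, had 52.3 ± 17.1 FPKM in controls and 57.4 ± 7.41 FPKM with C3G, and *Plcb3*, a phospholipase upstream of calcium release, had 35.4 ± 17.7 and 28 ± 5.09 FPKM (SD, n = 3).

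**Figure D4:**
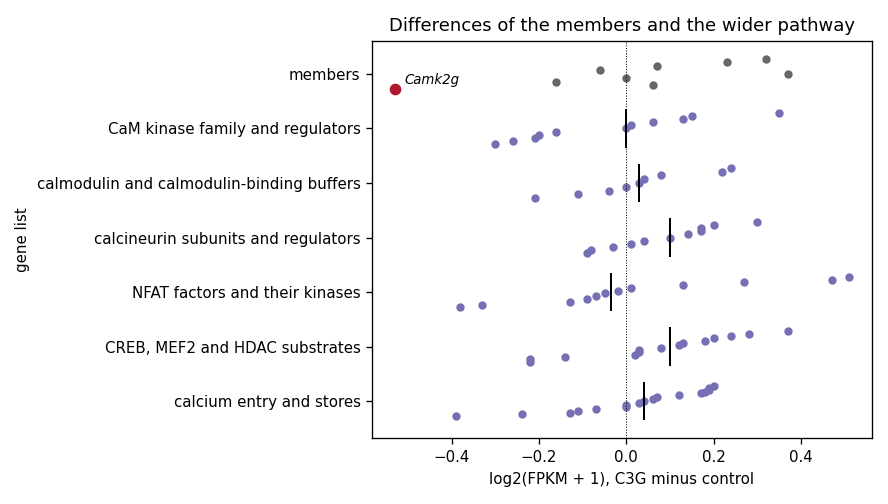
Fitted difference between C3G and control in log2(FPKM + 1) for the 9 members and for the 74 listed genes of 6 pathway lists, 1 point per gene, with vertical bars at the list medians. *Camk2g*, chosen for its fall, lies at -0.53, and the list medians lie between -0.04 and 0.10.

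The departure of control replicate 1 differed between the members. On the log2 scale it was -1.51 for *Calm2*, -1.18 for *Ppp3cb*, -0.91 for *Nfatc3*, -0.43 for *Ppp3ca* and -0.29 for *Camk2d*, whose longest transcripts have a GC content of 42.7%, 39.8%, 45.9%, 45.4% and 43.9%. It was 0.86 for *Camk1*, 0.58 for *Calm3* and 0.23 for *Camk2g*, at 50.4%, 58.3% and 51.8%, and -0.20 for *Camkk2* at 53.1%. The 5 members under 46% GC were thus all lower in that library, and 3 of the 4 above 50% were higher. For *Camk2g* the corresponding departure of C3G replicate 1 was -0.01. With each library corrected for GC content, the difference of *Camk2g* was -0.56 and the interval of *Calm2* narrowed to -0.29 to 0.68.

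**Figure D5:**
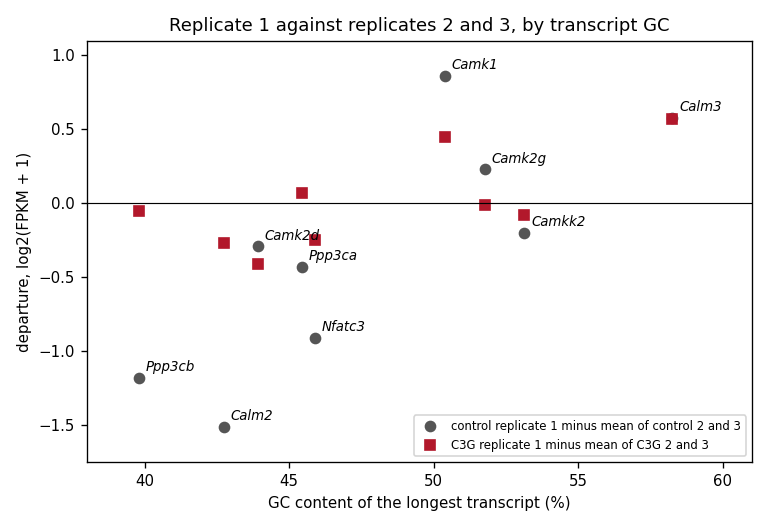
Departure of replicate 1 from the mean of replicates 2 and 3 of its group, in log2(FPKM + 1), against the GC content of the longest transcript in percent, for the 9 members. Grey circles are the control group and red squares the C3G group, and gene names stand beside the control points. The members under 46% GC lie below 0 in control replicate 1, down to -1.51 for *Calm2*.

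The genes whose profile over the 6 libraries was nearest to that of *Camk2g* were *Nupr1*, *Smad7*, *Iqcd*, *Nectin1* and *Vps9d1*, by the root mean square difference of centred log2 values among 10463 genes with a mean FPKM of at least 1. This distance was 0.0629 for *Nupr1*, which encodes a stress-induced nuclear protein, and 0.114 to 0.127 for the other 4. *Nupr1* had 7.34, 5.99 and 5.57 FPKM over controls 1 to 3 and 4.57, 4.28 and 4.28 FPKM over C3G libraries 1 to 3, so its groups did not overlap either. Among the members the nearest to *Camk2g* was *Camkk2*, at 0.316, and the farthest was *Calm2*, at 0.744. Since *Camk2g* was chosen by its fall, genes near it share that fall by construction.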

How the data were processed

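The data are RNA-seq libraries from 3 control and 3 C3G-treated samples of MC3T3-E1 cells, grouped and numbered by their titles. The authors prepared stranded libraries (KAPA kit), assessed raw reads in FastQC and obtained gene-level FPKM from Ballgown. The deposited FPKM were used unchanged. Per the labels, the submitters' processing notes also list cutadapt, HISAT2 2.1.0, StringTie and STAR 2.5.2b, without roles, and the human build hg19. The identifiers are those of mouse Ensembl genes, 9812 of 11234 with the version numbers of GENCODE M21, so positions, transcripts and sequences are from GENCODE M21 (GRCm38). Symbols matched 11211 identifiers. Every gene has a mean of at least 0.5 FPKM in 1 group or both. FPKM is scaled for length and library total only, and depth cannot be given.

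The main fit used log2(FPKM + 1) of every gene in limma 3.58.1 in R 4.3.3 (group as the only term, eBayes with trend). A gene counted as called when its two-sided unadjusted p was under 0.05 with at least a 1.2-fold change. Adjusted p values are Benjamini-Hochberg values over the 11234 genes. Intervals are limma's 95% intervals. The fit was tested on simulated data, with independent normal values of each gene's own spread and 200 genes changed by 1 on the log2 scale. It called 87% of the changed and 5.35% of the unchanged genes, whereas 0.650% of all genes were called in the real data. The simulation held neither the departure of control replicate 1 nor a pairing, and no member differed by that much. It therefore does not show how often a change in these members would be called. Sequences and tables were handled with Python 3.11.15. GC content is that of a gene's longest transcript. The members, the 6 pathway lists and the 15 alternatives were chosen with earlier results of these data known. The genes named are the members, the 2 genes of highest mean in each list, listed genes called or (at a mean FPKM of at least 1) without overlap between groups, and the 5 genes nearest *Camk2g*. Genes outside this rule, such as *Camkk1* and those lying between *Ppp3cb* and *Camk2g*, were named after their values were seen.

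Libraries with the same replicate number, taken from the titles, departed together from their group means. Pearson's r across genes was 0.653, 0.58 and 0.44 for numbers 1, 2 and 3, against -0.64 to 0.307 for other pairs. It was also positive for control replicate 2 with C3G replicate 3 (0.307) and for control replicate 3 with C3G replicate 2 (0.3). Departures within a group cancel out, so the values for numbers 2 and 3 are not independent of that for number 1. The replicate number was therefore treated as pairing the samples in the alternative fits with a replicate block. The intervals and p values given above come from fits without that pairing. Paired intervals were -0.26 to 0.37 for *Camk2d*, -0.54 to 0.23 for *Camk1*, -0.31 to 0.31 for *Camkk2* and -0.40 to 1.14 for *Calm2*. They were -0.38 to 0.26 for *Calm3*, -0.34 to 0.48 for *Ppp3ca*, -0.47 to 0.93 for *Ppp3cb* and -0.17 to 0.81 for *Nfatc3*. These paired intervals, without GC correction, each spanned both signs and were narrower than in the main fit.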

Additional observations from a re-analysis of the deposited data

How the results depend on the processing

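Under the 15 alternatives limma called 0 of the 8 members other than *Camk2g*. The log2 difference of *Camk2g*, given as a description, with pseudocount 0.1 was -0.63, with quantile normalization or median centring -0.60, and on leaving out single libraries -0.59 to -0.45. Of the 74 pathway genes, 0 were called in the alternatives that kept all libraries or replicates 2 and 3. With 1 library left out 0 to 2 were called, which were *Homer3* and *Nfatc4* without control replicate 2 and *Camk1g* without C3G replicate 2. Of all 11234 genes, 127 were called without control replicate 2 and 40 without C3G replicate 2. Calls over all genes numbered 73, against 135 with the GC correction, 169 with the replicate block, 246 with the replicate block and GC correction, 191 with replicates 2 and 3 only, and 40 to 144 with 1 library left out (144 without control replicate 1). The replicate block changed no call among the members or the pathway genes.

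The signs of the other members, none of which was called, were not stable, and 30 of their 120 differences changed sign. With quantile normalization *Camk2d* was at -0.03 and *Camkk2* at -0.09, and with median centring at -0.01 and -0.06. Both GC-corrected fits, the plain one and that with a replicate block, put *Camk2d* at -0.10, *Camkk2* at -0.0013, *Calm3* at 0.04, *Ppp3ca* at -0.06 and *Ppp3cb* at -0.01. With replicates 2 and 3 only *Camkk2* and *Calm2* were at -0.04, *Ppp3ca* at -0.10 and *Ppp3cb* at -0.15. With 1 library left out the ranges were -0.04 to 0.20 for *Camk2d*, -0.36 to 0.13 for *Camk1*, -0.06 to 0.10 for *Camkk2*, -0.13 to 0.64 for *Calm2*, -0.25 to 0.13 for *Calm3*, -0.08 to 0.17 for *Ppp3ca* and -0.16 to 0.45 for *Ppp3cb*, and leaving out control replicate 1 changed the sign in each of these 7. *Nfatc3* stayed above 0 at 0.02 to 0.51, the lowest value being that without control replicate 1. The cause of these changes was not tested. Depth is unknown, so no counting error limits can be given for low genes such as *Camk2a*.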
